A study of Homo sapiens with 2 samples.

Results

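MYC and the MAX network are a set of related transcription factors, and their transcripts were read here in the established lung cancer line HCC15 (human), with and without knockdown of CTNNB1, the gene of beta-catenin. The members named were 10 genes, namely MYC, MYCN, MAX, MXD1, MXD3, MXD4, MXI1, MNT, MLX and MGA, and they were taken as every probe set annotated to one of these symbols alone. That gave 33 of the 54675 probe sets of the array, covering 9 of the 10 genes. The 3 probe sets annotated to MXD4 carry a second symbol, so MXD4 has no value here. Both groups were HCC15 cells, which the labels class as squamous and the series title places among CTNNB1-mutated lung cancers, kept in RPMI 1640 medium with 5% serum and collected 48 h after siRNA transfection. The control group was 1 culture given a control siRNA, whose target the labels do not name and whose sample title carries the word Tax. The other group was 1 culture given an siRNA against CTNNB1. Each group was a single Affymetrix array of biotin-labelled RNA, so there is no replicate, no test and no p-value, and every difference compares these 2 arrays and holds whatever else differed between the 2 cultures and hybridisations.

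MYC proteins bind DNA as a pair with MAX at E-boxes, with CACGTG as the preferred form, and raise transcription of genes for growth, nucleotide synthesis and ribosome assembly. MXD1, MXI1, MXD3, MXD4 and MNT compete for MAX and recruit SIN3 and histone deacetylases to the same sites, so the balance of MYC and its antagonists sets the output of the network. MLX forms a parallel branch with the glucose-sensing factors MondoA (MLXIP) and ChREBP (MLXIPL), and MGA is a large MAX partner found in a repressive polycomb complex. In colorectal cells MYC is a textbook target of beta-catenin and TCF, so its level after CTNNB1 knockdown can be set beside that of AXIN2.

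The E-box is itself present ahead of several genes of the network. RefSeq promoters (GRCh38.p14, 250 bases before to 50 bases after each gene's start) were found for 9 of the 10 members, MYC not among them, and CACGTG, which reads the same on both strands, was in a promoter of 3 of these 9, MXD4, MNT and MLX. Of all 27305 genes with a promoter in the table, 8.77% had CACGTG in at least 1 of their promoters, and of all 35116 promoters 7.26% held it. The stretches around it are shown because they are the letters the MYC and MAX pair is known to read, printed 5′ to 3′ on the gene's strand with the E-box in capitals. They lie at chr4:2262312-2262359 (minus strand) for MXD4, chr17:2401218-2401283 (minus strand) for MNT and chr17:42567020-42567085 (plus strand) for MLX, with the E-box starting 238, 193 and 50 bases before the gene's start.
MXD4: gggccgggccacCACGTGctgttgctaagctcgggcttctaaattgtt
MNT: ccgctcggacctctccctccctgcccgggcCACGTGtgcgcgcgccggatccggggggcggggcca
MLX: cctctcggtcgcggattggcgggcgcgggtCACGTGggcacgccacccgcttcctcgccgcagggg
The letters ATCAAA, the core that TCF and LEF factors bind, were searched on both strands (TTTGAT on the other) and were in a promoter of 1 of the 9 members, MGA, against 11.4% of all genes and 9.53% of all promoters. A match describes these letters in this window and is not evidence of binding.

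Values below are deposited MAS5 signal intensities, and ratios are CTNNB1 siRNA over control siRNA. Before taking log2, signals under 13.8 (the 25th percentile of all values) were set to 13.8, so a fold against such a value is a lower bound. A probe set passed the signal filter when its mean over both arrays reached 49.1 (the median over all values), and the passing probe set with the highest mean stood for its gene. A gene or probe set was called when its ratio reached 2-fold. The only measure of error is the pooled SD of log2 ratios between passing probe sets of the same gene, 0.42 over 5791 genes and 0.29 over bright probe sets, those with a mean signal of at least 209. It does not cover variation between cultures.

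The knockdown was visible on the array. The brightest CTNNB1 probe set read 1224 with control siRNA and 339 after knockdown, 27.7% of the control, while the other passing ones read 51.0% and 91.3%. AXIN2, a feedback target of beta-catenin, read 906 and 273. Of the epithelial markers EPCAM, KRT8, KRT18, KRT19 and CDH1, 5 of 5 passed the filter. Of 8 squamous markers, 6 had a probe set with 1 symbol (KRT5, KRT14, SOX2, DSG3, PKP1 and TRIM29). Of these only SOX2 passed, at 60.1 and 41.6, so the squamous label is not borne out by the 6 markers read. The squamous markers TP63 and KRT6A had no such probe set and were not read. Of 4 lung adenocarcinoma markers 3 passed, and of 4 fibroblast markers 2, so passing the filter does not by itself mark a cell type. Across the 12531 genes that passed, the median log2 ratio was 0.15, and with genes split into deciles of signal it was -0.24 in the dimmest decile and 0.28 in the ninth.

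None of the 8 member genes with a passing probe set reached 2-fold in either direction, which with 8 genes is close to the background share. Of the 8 member genes with a passing probe set, 0 were called lower and 0 higher, where 2.38% of all genes were called lower and 2.29% higher. Of their 16 passing probe sets, 0 were called, against 2.21% lower and 3.42% higher among the 22468 passing probe sets with 1 symbol. These shares depend on scaling, since lower genes made up 50.9% of all calls as deposited, 27.9% with scaling to a common median and 72.1% with centring on the median ratio. Of the 16 member probe sets 6 (37.5%) lay more than 1 probe set SD from a ratio of 1, beside 36.5% of all passing probe sets with 1 symbol. The median log2 ratio of the 8 genes was 0.04, beside 0.15 for all genes. The 8 are those bright enough to pass, not all 10 members.

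**Figure D1:**
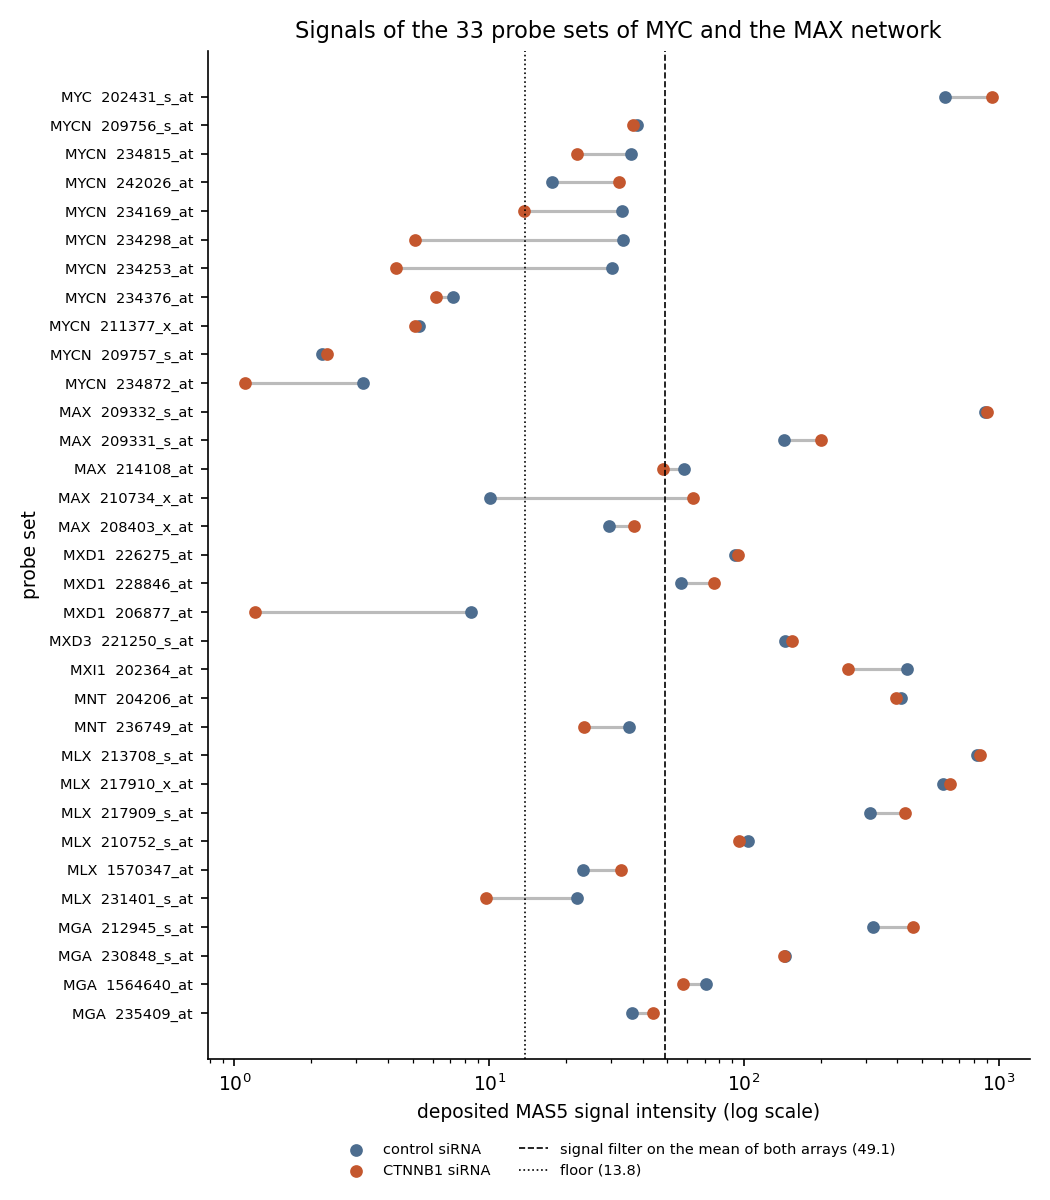
Deposited signal (x axis, log scale) of each of the 33 member probe sets (rows) on the control siRNA array (blue) and the CTNNB1 siRNA array (orange), with the signal floor of 13.8 dotted and the signal filter of 49.1 dashed. MYC lies further right with CTNNB1 siRNA and MXI1 further left, and all 10 MYCN rows stay left of the filter.

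MYC, the growth-promoting partner of MAX, was not lower after CTNNB1 knockdown. Its only probe set (202431_s_at) read 614.5 with control siRNA and 944.2 with CTNNB1 siRNA, so the knockdown array was the higher one, 154% of the control. This is a log2 ratio of 0.62, below the 2-fold rule and larger than the probe set SD of 0.42. The ratio was above that of 90.2% of all genes and above that of 89.0% of genes in the same decile of signal, whose median was 0.20. It stayed above 0 in all 10 processing settings, from 0.38 with quantile normalization to 0.76 with scaling to a common median, and under quantile and loess normalization (0.39) it was smaller than the probe set SD. With 1 probe set there was no second reading of MYC.

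MYCN, the neuronal paralog of MYC, gave no signal that passed. Its 10 probe sets spanned 2.2 to 38.2 with control siRNA and 1.1 to 36.8 with CTNNB1 siRNA, and 4 of them were under the floor on both. In raw signal 8 of the 10 were lower on the CTNNB1 siRNA array, among them all 5 that share 1 source accession in the annotation and so are not independent readings. The brightest MYCN probe set (209756_s_at) read 38.2 and 36.8, a log2 ratio of -0.05. Against the floor, 234298_at (33.6 and 5.1) was at least 2.43-fold lower, 234169_at (33.1 and 13.7) at least 2.40-fold and 234253_at (30.3 and 4.3) at least 2.20-fold. In the other direction 242026_at read 17.6 and 32.4. At these signals the probe sets of MYCN do not share a direction.

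MAX, the shared partner of MYC, MXD proteins, MNT and MGA, was level on its brightest probe set. That probe set (209332_s_at) read 880.7 and 903.3, a log2 ratio of 0.04, and lay below 76.1% of genes of like signal. The other passing MAX probe sets went either way, with 143.7 and 200.6 for 209331_s_at (log2 ratio 0.48) and 58.1 and 48.2 for 214108_at (-0.27). Below the filter, 208403_x_at read 29.5 and 37.0. A further one, 210734_x_at, went from 10.1 to 63.2 and was at least 4.58-fold higher, although probe sets with the ending _x_at can take signal from other transcripts and its mean was under the filter. The MAX log2 ratio ran from -0.22 to 0.17 over the settings, so it has no stable sign.

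MXI1, also called MXD2, an antagonist that pairs with MAX and recruits SIN3, had the lowest ratio of the 8 genes with a passing probe set. Its only probe set (202364_at) read 436.8 with control siRNA and 255.9 after CTNNB1 knockdown, 58.6% of the control. That is 1.71-fold lower, a log2 ratio of -0.77, short of the 2-fold rule. In all, 4.26% of genes had a lower ratio, and 1.60% of those in its own decile of signal, where the median was 0.14. The sign held in all 10 settings, from -0.64 with scaling to a common median to -0.96 with quantile normalization, and 2-fold was reached in 0 of them.

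The other MXD antagonists were close to their controls. MXD1, induced during differentiation of many cell types, read 92.6 and 94.6 (226275_at, log2 ratio 0.03), and 56.4 and 76.0 on its other passing probe set (228846_at, 0.43). Its remaining probe set (206877_at) read 8.5 and 1.2, under the floor on both arrays. MXD3, the family member linked to proliferating cells, read 144.6 and 153.8 on its only probe set (221250_s_at), a log2 ratio of 0.09. All of these except 228846_at differed by less than the probe set SD, and the sign for both genes turned below 0 with centring on the median ratio (-0.11 for MXD1 and -0.06 for MXD3), for MXD3 also with quantile normalization (-0.01).

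MNT, the widely expressed MAX partner that represses in resting and dividing cells alike, read 413.1 and 394.4 on 204206_at, a log2 ratio of -0.07. Its dim second probe set (236749_at), under the filter, read 35.4 and 23.5. The MNT ratio was below 0 in 9 of the 10 settings and 0.07 with scaling to a common median. Its E-box, shown above, thus stands ahead of a gene whose signal was about the same on both arrays.

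MLX, the partner of MondoA and ChREBP, had 4 passing probe sets, of which 3 were near a ratio of 1. The brightest (213708_s_at) read 818.9 and 844.0, a log2 ratio of 0.04. The others read 606.0 and 646.6 (217910_x_at, 0.09), 313.3 and 430.5 (217909_s_at, 0.46) and 104.1 and 96.0 (210752_s_at, -0.12). Among them 217909_s_at alone passed the probe set SD. Under the filter, 1570347_at read 23.4 and 32.8 and 231401_s_at read 22.1 and 9.7. The MLX sign was above 0 in 7 settings and below it in 3.

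MGA, the MAX partner of the polycomb complex PRC1.6, was higher on its brightest probe set and on no other passing one. That probe set (212945_s_at) read 322.2 and 462.5, 144% of the control (log2 ratio 0.52), above that of 82.4% of genes of like signal. In contrast, 230848_s_at read 145.0 and 143.9 (-0.01) and 1564640_at read 71.1 and 57.6 (-0.30). Below the filter, 235409_at read 36.4 and 44.0. The spread of 0.83 between the passing MGA probe sets is larger than the ratio itself, and with the median over probe sets MGA had a log2 ratio of -0.01. Of the 4 members with several passing probe sets, MAX, MLX and MGA had readings of both signs and MXD1 did not.

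**Figure D2:**
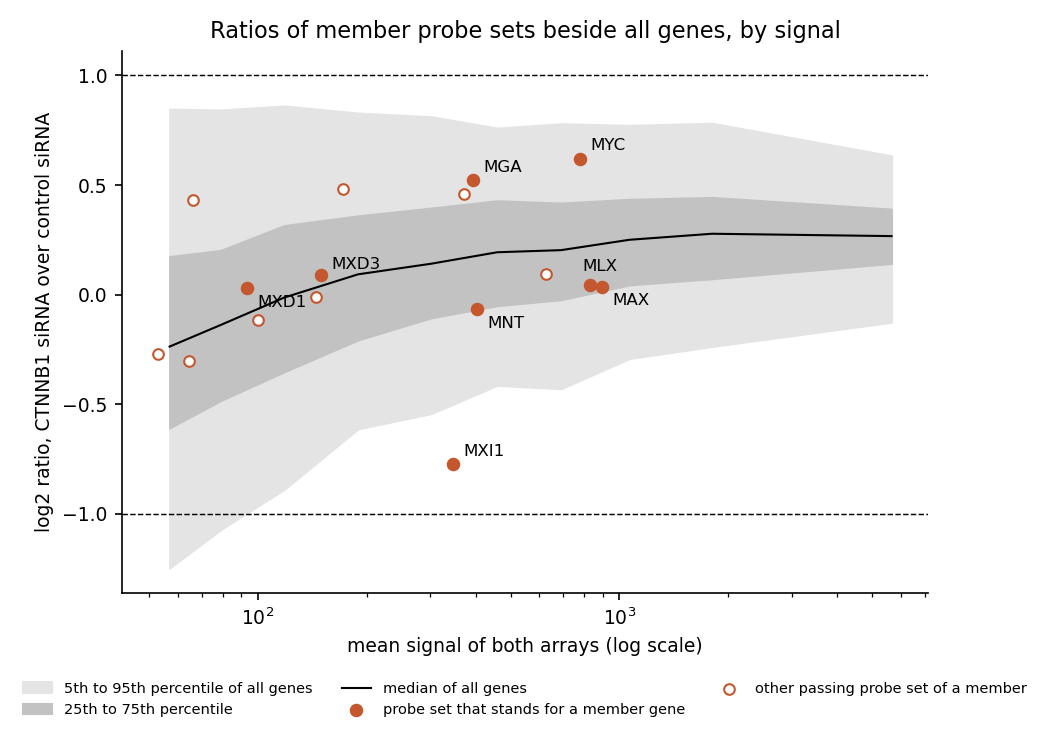
Log2 ratio of CTNNB1 siRNA over control siRNA (y axis) against the mean signal of both arrays (x axis, log scale) for the 16 passing member probe sets, filled where the probe set stands for its gene and open otherwise. The line is the median of all genes in each decile of signal, and the bands span their 25th to 75th and 5th to 95th percentiles. MXI1 at -0.77 is the only filled point below the 5th percentile of its surroundings, MYC at 0.62 and MGA at 0.52 lie above the 75th, and no point reaches the dashed lines at 2-fold.

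MYC and MXI1 had the highest and the lowest ratio of the 8 genes, so the difference between them is the range of these values and is given as a description. The log2 ratio of MYC exceeded that of MXI1 by 1.39. This difference does not depend on a constant scaling of the 2 arrays to each other, and it lay between 1.33 and 1.39 in the 10 settings. MYC exceeded MAX by 0.58 (0.58 to 0.60 over the settings) and MNT by 0.69 (0.65 to 0.69). It exceeded MGA by 0.10 as deposited, and by 0.05 to 0.63 over the settings, the highest with the median over probe sets. MYC and MXI1 each rest on 1 probe set, so neither value has a second reading, and variation between cultures was not measured.

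**Figure D3:**
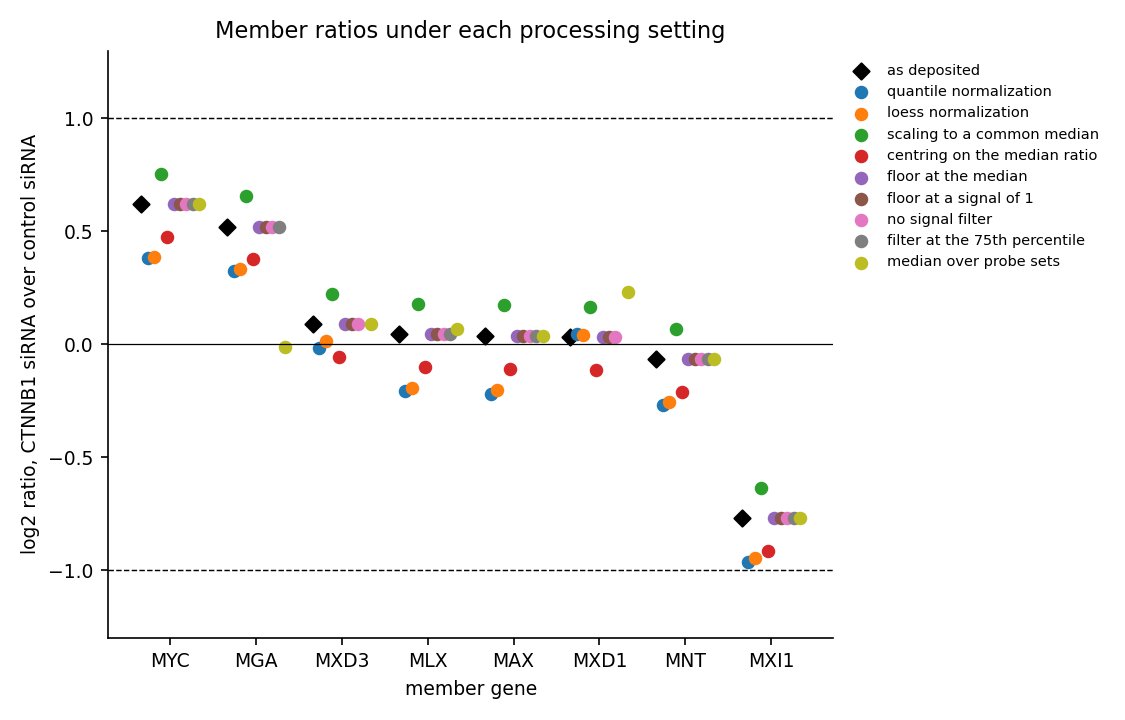
Log2 ratio of CTNNB1 siRNA over control siRNA (y axis) of the 8 member genes (x axis) as deposited (black diamonds) and under 9 other processing settings (coloured circles), with 2-fold dashed. MYC stays above 0 and MXI1 below 0 in every setting drawn, MGA drops to -0.01 with the median over probe sets, and the other 5 genes have settings on both sides of 0.

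The factors next to the listed members had readings on either side of a ratio of 1. MLXIP, which encodes MondoA, read 913.4 and 1225.1, a log2 ratio of 0.42, and 0.27 on its second passing probe set. MYCL, the third MYC gene, read 110.9 and 86.8 (-0.35), and its dim probe set went from 33.5 to 46.5. The only probe set of ChREBP (MLXIPL), under the filter, read 52.1 and 12.4 and was at least 3.78-fold lower. Of 4 genes known to follow MondoA and MLX, 3 passed and 0 were called, where 2.38% of all genes were called lower and 2.29% higher. KLF10 had a log2 ratio of 0.70 and the thioredoxin inhibitor TXNIP of 0.36 (83.9 and 107.8, with 0.38 on its other passing probe set). PKLR had 0.30 at a dim 45.6 and 56.1, just over the filter, and its other probe sets were under the floor on both arrays. ARRDC4, under the filter, read 49.1 and 38.5.

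Cofactors of the activating and of the repressing side mostly had ratios above 1, as did 64.0% of all genes, and none was called (2.38% of all genes were called lower and 2.29% higher). Of 13 passing MYC coactivators, 0 were called and 12 had a ratio above 1, with a median log2 ratio of 0.32. The MYC-binding factor MIZ1 (ZBTB17) came nearest to 2-fold at 0.96 (89.5 and 173.8), followed by the acetyltransferase KAT2A at 0.74 and the PAF complex subunit CDC73 at 0.70, although CDC73 had 0.18 as the median over its probe sets. Of 9 passing genes for SIN3 and histone deacetylase complexes, which MXD proteins and MNT recruit, 0 were called, 7 had a ratio above 1 and the median was 0.44. SUDS3 had a log2 ratio of 0.89 (504 and 932.3), SAP30 of 0.61 and the deacetylase HDAC2 of 0.47. These counts rest on the probe set that stood for each gene. SIN3B had -0.36 on it but read 78.7 and 35.6 on another passing probe set (-1.14). RBBP4 had 0.33 on it but read 134.1 and 309.7 on another passing probe set (1.21). Relative to genes of their own decile of signal, 10 of the 13 coactivators and 6 of the 9 corepressors lay above the median, and the medians of these differences were 0.07 and 0.17.

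The lists of MGA complex and MYC turnover genes had medians near that of all genes, with single genes on either side. None of their genes was called, where 2.38% of all genes were called lower and 2.29% higher. These counts rest on the probe set that stood for each gene. The MGA partner RYBP had a log2 ratio of 0.17 on it, with 1.32 (75.6 and 188.3) and 0.96 on its other passing probe sets. The turnover gene SKP2 had 0.40 on it, with 1.29 (58.3 and 142.1) and 0.67 on its other passing probe sets. Of 10 passing partners of MGA in PRC1.6, 0 were called and the log2 ratios ran from -0.54 to 0.63 with a median of 0.20, with EHMT2, a histone methyltransferase, at 0.63, the E2F partner TFDP1 at 0.55 and L3MBTL2 at -0.54 (0.22 on its other passing probe set). Of 12 passing genes that control the stability of MYC protein, 0 were called and the log2 ratios ran from -0.79 to 0.75 with a median of 0.18. USP28, a deubiquitinase known to stabilise MYC, had the largest ratio in absolute size. It read 1252.8 and 723.3, a log2 ratio of -0.79, and its other passing probe sets had -0.60 and -0.99, so all 3 were lower with CTNNB1 siRNA, and with quantile and loess normalization USP28 was past 2-fold. The kinases AURKA and PLK1 had 0.75 and 0.70, with AURKA probe sets running from -0.38 to 0.92.

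Among genes that MYC is known to activate, 2 of 30 passed 2-fold and 19 of 30 lay above the median of genes of like signal. Of 35 such genes 30 passed the filter, with 0 called lower and 2 called higher, beside 2.38% and 2.29% of all genes, and 26 had a ratio above 1, beside 64.0% of all genes. These calls rest on the probe set that stood for each gene. CCND2 had a log2 ratio of -0.18 on it but read 83.3 and 17.7 on another passing probe set (-2.23). UBTF had -0.03 on it but 1.05 on another passing probe set. RRP9, which takes part in processing of ribosomal RNA, was 2.94-fold higher (132.2 and 388.3). TERT, the catalytic subunit of telomerase, was 2.17-fold higher from a dim 50.4 to 109.4, but its other passing probe set read 62.5 and 62.9. The amino acid transporter SLC7A5 had a log2 ratio of 0.81 (3641.7 and 6378.9), the ribosome assembly factor PES1 of 0.76 and spermidine synthase (SRM) of 0.63. ODC1, the first enzyme of polyamine synthesis, had 0.41, nucleolin (NCL) 0.32 with -0.47 on its dim probe set, CAD of pyrimidine synthesis 0.21 and CDK4 -0.19. The median of the list was 0.33 against 0.15 for all genes, but these are mostly bright genes, and relative to the median of their own decile of signal 11 of 30 were below, and the median difference was 0.07. Over the 10 settings the list's median lay between 0.06 and 0.32 above that of all genes, and it was 0.03 with loess normalization.

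Genes that MYC is known to repress had ratios of both signs as deposited. Of 11 such genes 7 passed, and 1 was called lower and 0 higher, beside 2.38% and 2.29% of all genes. The median log2 ratio was 0.03. It was -0.25 with quantile and -0.23 with loess normalization, and relative to their own decile of signal 2 genes lay above the median and 5 below, by a median of -0.24. CDKN1A, which encodes the cell cycle inhibitor p21, read 284.8 and 121.6, 2.34-fold lower. The inhibitor gene CDKN1C had -0.79, with -0.04 on its other passing probe set. The stress genes GADD45A and GADD45B had 0.54 and 0.48. The lists of activated and repressed targets come from general knowledge of MYC and not from HCC15, but were chosen with earlier results of these data known.

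**Figure D4:**
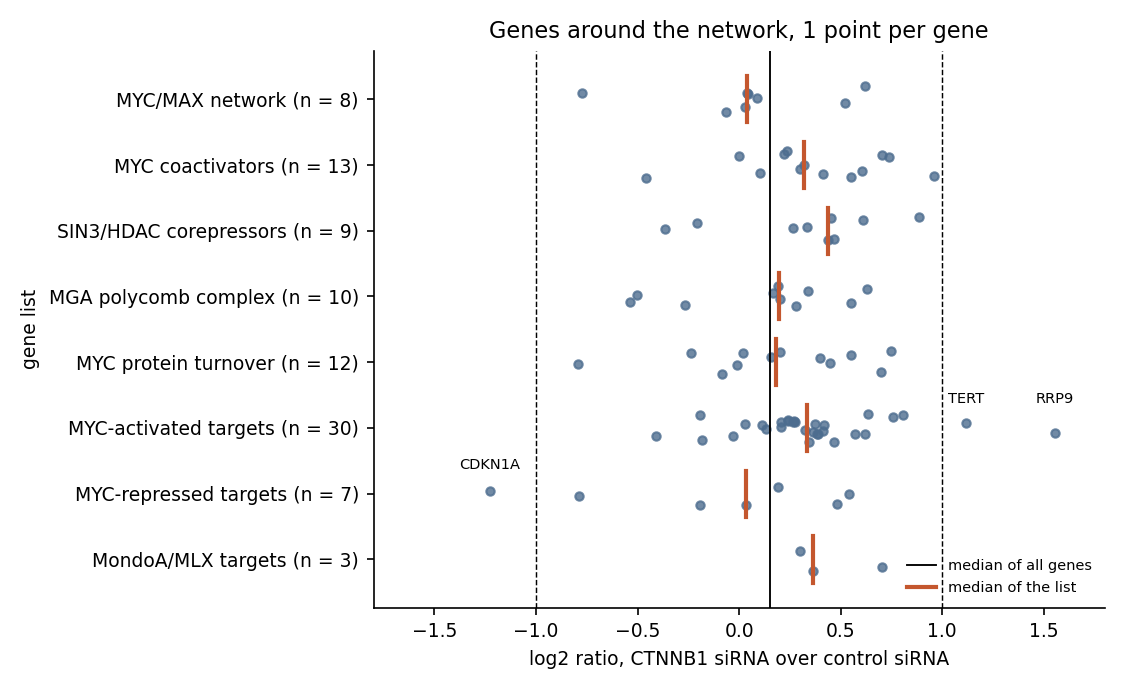
Log2 ratio of CTNNB1 siRNA over control siRNA (x axis) of each passing gene, 1 point per gene, in the network and 7 gene lists around it (rows, with the number of genes). Orange bars are list medians, the solid line is the median of all genes at 0.15 and dashed lines mark 2-fold. RRP9, TERT and CDKN1A are the only points past 2-fold.

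Promoters of the activated targets often held the E-box, and holding it went with little difference in ratio across the array. A promoter matched 29 of the 35 activated targets, and CACGTG was in 16 of them (55.2%), beside 8.77% of all genes with a promoter and 3 of 9 network members. Among the 16 were RRP9 and PES1, where the E-box lies after the gene's start, and SRM, SLC7A5 and CDK4, where it lies before it. These last are shown to set the same letters beside unlike ratios, 0.63 for SRM, 0.81 for SLC7A5 and -0.19 for CDK4, whose promoter holds the E-box 3 times. The stretches are chr1:11060182-11060247 for SRM, chr16:87869602-87869667 for SLC7A5 and chr12:57752376-57752441 for CDK4 (the copy nearest the start), all on the minus strand of GRCh38.p14, with the E-box in capitals.
SRM: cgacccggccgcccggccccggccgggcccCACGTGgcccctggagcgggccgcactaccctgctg
SLC7A5: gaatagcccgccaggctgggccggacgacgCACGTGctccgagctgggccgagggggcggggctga
CDK4: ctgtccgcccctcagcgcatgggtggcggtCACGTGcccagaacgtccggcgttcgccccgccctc
Across all passing genes with a promoter, the 1285 with CACGTG had a median log2 ratio of 0.19 and the 8928 without it 0.15. The share at least 2-fold higher was 2.10% with the E-box and 2.25% without, and the share at least 2-fold lower was 1.17% and 2.16%. Genes with the E-box were also brighter, with a median mean signal of 505 against 396, and the part of signal in these shares was not tested.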

How the data were processed

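The deposited table held 1 linear signal intensity per probe set and array. The authors used MAS5, per the submitters' processing notes, and neither its version and target intensity nor a scaling of the arrays to each other is stated in the labels. Detection calls were not used here. Gene names came from GEO's annotation of the platform, with 41097 probe sets carrying 1 symbol, 1801 carrying several and 11777 unlisted. Of those with 1 symbol, 41043 were matched to RefSeq by Entrez number and took the RefSeq name. From the deposited intensities, log2 ratios were taken with the floor, filter and gene rule given above (Python 3.11.15, pandas 2.3.3), without further normalization. Alternatives were quantile, loess (span 0.4) and common-median scaling, centring, a floor at the median or at 1, no filter or one at the 75th percentile, and the median over probe sets. The calculations were tested on simulated data. With 2 arrays the number of arrays limits the precision.

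Named were all members, each list's genes past 2-fold and up to 3 more with the largest absolute ratio, and TXNIP, ARRDC4, ODC1, CAD, NCL and CDK4. Genes of these lists with another passing probe set past 2-fold were named as well, namely SIN3B, RBBP4, RYBP, SKP2, CCND2 and UBTF. Likeness of pattern to other genes was not ranked, since 2 arrays give 1 ratio per probe set. The members and lists were chosen with earlier results of these data known.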

Additional observations from a re-analysis of the deposited data

How the results depend on the processing

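In the 9 alternatives, 0 network members reached 2-fold in either direction, and MYC stayed above 0 and MXI1 below 0. MGA was at -0.01 with the median over probe sets, and the signs of MAX, MXD1, MXD3, MNT and MLX were not the same in every setting. The median of the 8 members ran from -0.11 with quantile normalization to 0.18 with scaling to a common median. The 3 genes past 2-fold included TERT, which had 0.56 with the median over probe sets. Counts that changed were as follows. With scaling to a common median, 1 coactivator (ZBTB17) and 1 corepressor (SUDS3) were called higher. With quantile and with loess normalization, 1 turnover gene (USP28) was called lower. Higher activated targets numbered 1 in place of 2 with centring, the stricter filter (75th percentile) or the median over probe sets. Lower repressed targets numbered 0 with the stricter filter, where CDKN1A did not pass it. With no filter, 1 further network factor (MLXIPL) was called lower and 1 repressed target (NDRG2) higher. Over all genes, lower calls ran from 34 with the stricter filter to 1275 with no filter, against 298 as deposited, and higher calls from 139 to 722, against 287. Among the named genes outside the network, apart from those named only for another probe set, the signs of CAD and NCL turned in an alternative. Dim probe sets, including all 10 of MYCN, limit what can be said.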
